A study of Mus musculus with 24 samples.

Results

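A set of 10 genes of the Notch pathway were followed in whole lungs of young mice: the receptors *Notch1*, *Notch2*, *Notch3* and *Notch4*, the ligands *Jag1*, *Dll1* and *Dll4*, and the target genes *Hes1*, *Hey1* and *Heyl*. They were chosen by gene symbol from tables of 23420 genes, and all 10 were listed and passed the filter on low values in each of 4 comparisons. In each comparison 3 mutant left lung lobes were set against 3 control lobes. The mutants were *Vangl2f/f; Sox9Cre/+* or *Ror2f/f; Sox9Cre/+* mice at postnatal day 2 (P2) or 5 (P5), and each mutant and age had its own 3 controls, whose genotype is given as WT. That makes 24 lungs in 8 groups.

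*Vangl2* and *Ror2* encode a core planar cell polarity protein and a receptor for WNT5A. *Sox9Cre* removes the floxed gene from SOX9-expressing distal lung epithelium, and this Cre is also expressed in tissues other than the lung. RNA came from the whole lobe, so each value mixes epithelium, mesenchyme, vessels and blood, and fewer cells of a type cannot be told apart from less RNA per cell. In 2 mutant groups, *Vangl2* at P5 and *Ror2* at P2, the genotype field contradicts the sample title by naming the other floxed gene, and titles were used. *Vangl2* had 369, 314 and 292 normalized counts in the P5 *Vangl2* controls and 170, 148 and 166 in the mutants (0.496 of the control mean, limma with Benjamini-Hochberg adjusted p = 0.0604), and 248.6, 301.6 and 280.6 against 241, 224 and 173 at P2 (adjusted p = 0.241), without overlap at either age. *Ror2* had 451, 581 and 520 in the P2 *Ror2* controls and 479, 349 and 366 in the mutants (log2 fold change -0.38, limma adjusted p = 0.250). At P5 *Ror2* had 526, 368 and 597 in controls and 362, 440 and 521 in mutants, and the groups overlapped at both ages, so the deleted gene itself did not separate the lungs labelled *Ror2* mutant.

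Notch receptors sit in the plasma membrane and are activated by ligands of the Jagged and Delta-like families on a neighbouring cell. Binding lets proteases release the intracellular domain, which enters the nucleus, joins the DNA-binding protein RBPJ and switches on genes such as *Hes1*, *Hey1* and *Heyl*, themselves transcriptional repressors. In the lung the pathway is known for setting secretory against ciliated fate in airways, for arterial endothelial identity, to which DLL4 and NOTCH1 contribute, and for the coverage of vessels by mural cells, where NOTCH3 and HEYL are prominent. NOTCH4 is found mainly in endothelium.

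The 10 genes lie on 5 chromosomes of the mouse genome (GRCm38). *Notch1* (chr2:26457903-26516663), *Jag1* (chr2:137081456-137116644) and *Dll4* (chr2:119325784-119335962) are on chromosome 2. *Notch3* (chr17:32120820-32166852), *Notch4* (chr17:34564268-34588503) and *Dll1* (chr17:15367354-15376872) are on chromosome 17. *Notch2* (chr3:98013527-98150361) and *Hey1* (chr3:8663359-8667256) are on chromosome 3, *Heyl* (chr4:123233556-123249875) is on chromosome 4 and *Hes1* (chr16:30064384-30067796) is on chromosome 16. RefSeq promoter sequences (GRCm38.p6) were matched for 7 of the 10 members, the receptors and ligands. The target genes *Hes1*, *Hey1* and *Heyl* had no entry. The 250 bases before the start site are shown for the receptor with the lowest adjusted p in any comparison and for *Dll4*, the ligand that stood apart at P2 in both mutants. Capitals mark CACGCG on either strand, a sequence that proteins of the HES and HEY families can bind; the *Notch3* window holds none.
Notch3, chr17:32166891-32167140, minus strand: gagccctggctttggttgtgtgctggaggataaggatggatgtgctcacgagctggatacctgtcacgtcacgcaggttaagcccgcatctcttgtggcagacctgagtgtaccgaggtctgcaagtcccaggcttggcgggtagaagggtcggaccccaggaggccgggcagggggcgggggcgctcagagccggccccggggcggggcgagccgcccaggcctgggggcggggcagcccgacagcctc
Dll4, chr2:119325534-119325783, plus strand: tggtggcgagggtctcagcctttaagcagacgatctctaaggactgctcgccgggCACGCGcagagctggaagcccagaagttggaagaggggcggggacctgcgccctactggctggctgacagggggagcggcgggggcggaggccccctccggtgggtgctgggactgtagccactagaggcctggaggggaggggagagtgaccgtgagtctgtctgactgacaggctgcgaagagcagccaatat

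The members have 8 such windows, since *Dll1* has a pair of start sites. CACGCG was found in 4 of the 8 windows, those of *Notch2*, *Jag1*, *Dll4* and 1 of *Dll1*, and in 7.62% of the 32851 promoter windows of all genes. CACGTG, another sequence bound by HEY proteins, was in 0 of the 8 and in 6.02% of all. The RBPJ core TGGGAA was in 0 of the 8 and in 21.6% of all, and the longer GTGGGAA, which contains it, was in 0 of the 8 and in 5.42% of all. No promoter of the targets *Hes1*, *Hey1* and *Heyl* was among the 8 windows, so the RBPJ search did not cover them. The 8 windows had 56.0% to 72.0% GC and 4 to 34 CpG (C followed by G), against medians of 52.4% and 6 over all windows. CACGCG itself contains CpG, and the shares were not compared at a like base composition. These letters describe the windows only, and the absence of a sequence says nothing of binding elsewhere.

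Between 16178031 and 21546673 reads fell on genes in 23 of the lungs. Control replicate 1 of the P5 *Ror2* comparison had 13823693, since all 3474 genes examined on chromosomes 6 to 9 and X were under 2 normalized counts in it. No member lies on those chromosomes, so its values for the members were kept. Without it the log2 fold change in P5 *Ror2* mutants went from -0.20 to -0.36 for *Dll4* (limma adjusted p = 0.172), from -0.23 to -0.34 for *Notch3* (0.201) and from 0.50 to 0.75 for *Hey1* (0.155), and all genes called went from 31 to 6.

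Among control lungs, *Hes1* RNA was the most abundant of the 10 per length. Levels were set as RPKM, reads per kilobase of exon scaled to a common total over chromosomes that every lung retained, and they are a description across 12 control lungs of separately made tables. *Hes1* had a mean of 89.1 ± 10.8 (SD, n = 12), and its lowest lung at 71.2 was above the highest lung of *Hey1*, 69.1. *Hey1* (44.2 ± 10.8), *Heyl* (39.5 ± 9.46), *Notch3* (36.8 ± 4.28), *Notch4* (32.0 ± 2.77), *Notch1* (31.1 ± 4.70) and *Dll4* (30.5 ± 6.72) followed, and each overlapped its neighbour in the order. *Notch2* (16.9 ± 1.51), *Jag1* (11.97 ± 2.59) and *Dll1* (11.6 ± 3.24) formed the lower end, overlapped one another, and lay below the lowest *Dll4* lung. The endothelial ligand *Dll4* had the highest level of the 3 ligands in the controls.

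**Figure D1:**
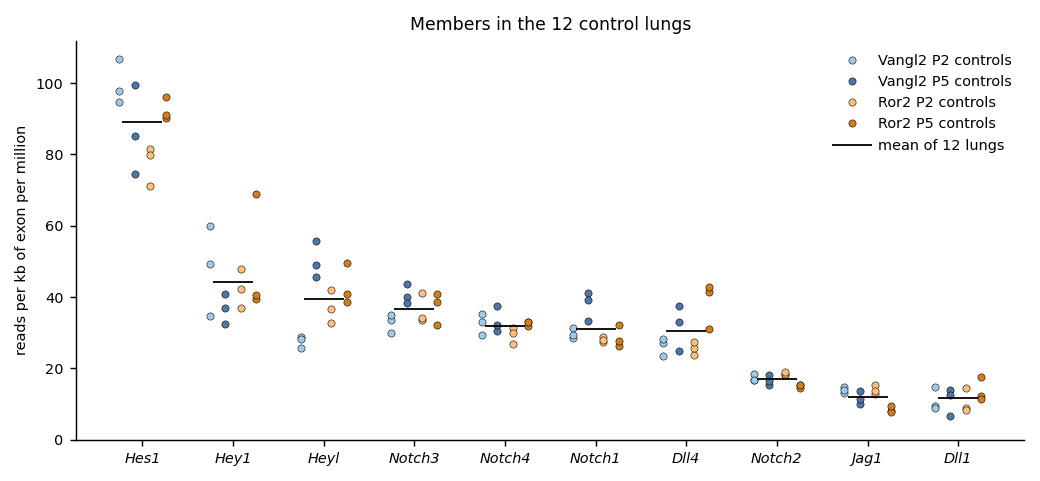
Level of each member in the 12 control lungs, as RPKM over chromosomes other than 5 to 9, X and Y. Points are lungs, coloured by comparison, and the black bar is the mean of 12. *Hes1* lies above all others, and *Notch2*, *Jag1* and *Dll1* lie below *Dll4*.

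Between the ages, the controls of the *Vangl2* comparisons had 125 ± 7.93 RPM (reads scaled to the same total, without length) of *Heyl* at P2 and 227 ± 23.3 at P5 (SD, n = 3), a ratio of 1.81, with no overlap. In the *Ror2* controls the same gene had 169 ± 21.4 and 195 ± 26.4, a ratio of 1.16, and the ages overlapped. *Jag1* was lower at P5 in the *Ror2* controls (77.9 ± 6.96 against 47.2 ± 4.79, no overlap) and had 78.3 ± 4.36 and 65.2 ± 10.4 in the *Vangl2* controls, with overlap. *Dll4* was higher at P5 in the *Ror2* controls (96.2 ± 6.80 against 144 ± 23.9, no overlap) and had 98.4 ± 9.39 and 119 ± 23.8 in the others. No member was apart between the ages in the same direction in both sets of controls, and age cannot be told apart from the table it was measured in.

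In the mutants, no member passed an adjusted p of 0.05 in limma, fitted over the 6 lungs of a comparison and all genes, in any of the 4 comparisons. Before adjustment for the number of genes, the 95% interval lay below 0 for *Notch3*, *Notch4* and *Heyl* and above 0 for *Hey1* in P5 *Vangl2* mutants. It lay above 0 for *Hes1*, *Hey1*, *Dll4*, *Jag1* and *Notch1* in P2 *Ror2* mutants, and in P5 *Ror2* mutants above 0 for *Notch2*, *Jag1* and *Hey1* and below 0 for *Heyl*. In P2 *Vangl2* mutants the intervals of all 10 members included 0. No label states a pairing, but the P5 *Vangl2* lungs were also paired by replicate number, after correlations seen in the same values. In that paired fit *Notch3*, *Notch4* and *Heyl* did pass, as did 8.95% of all genes. No member passed in it when pair 2 was left out.

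**Figure D2:**
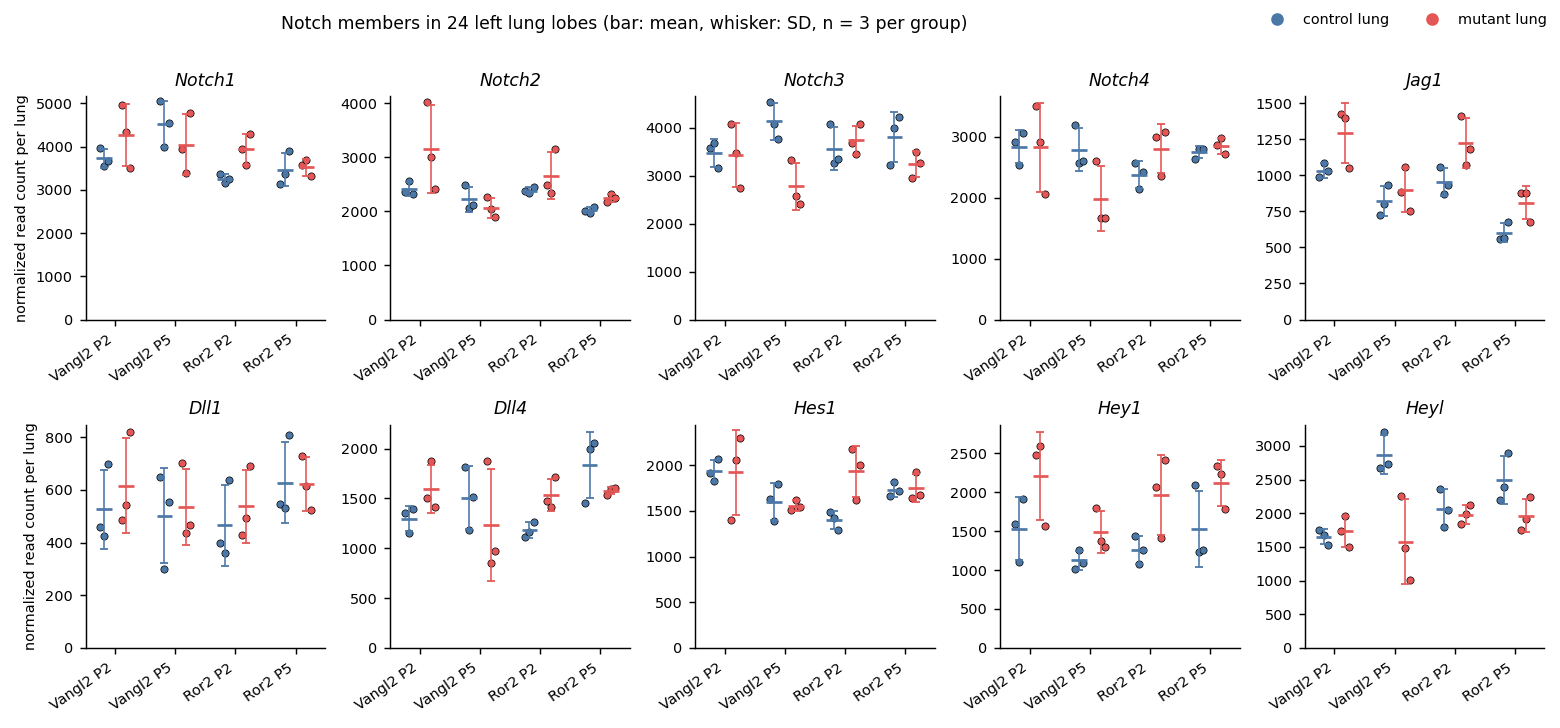
Normalized read count of each member in every lung, control in blue and mutant in red, for the 4 comparisons. Points are lungs, the bar is the mean and the whisker the SD of 3. In P5 *Vangl2* mutants all 3 lungs lie below the controls for *Notch3* and *Heyl*, while in P2 *Ror2* mutants all 3 lie above for *Notch1*, *Jag1*, *Dll4* and *Hes1*.

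The counts were as follows. At P2 in *Vangl2* mutants 0 of 10 members were called, against 3.59% of the 17448 genes tested, 0 had an unadjusted p under 0.05, against 22.5%, and in 1 the mutants lay past all controls, against 29.6%. At P5 in *Vangl2* mutants 0 were called, against 0.563% of 17410 genes, 4 had an unadjusted p under 0.05, against 18.8%, and in 3 the groups were apart, against 25.7%. At P2 in *Ror2* mutants 0 were called, against 0% of 17541 genes, 5 had an unadjusted p under 0.05, against 19.3%, and in 4 the groups were apart, against 25.7%.

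At P5 in *Ror2* mutants 0 were called, against 0.18% of 17177 genes, 4 had an unadjusted p under 0.05, against 18.5%, and in 2 the groups were apart, against 26.1% of the 11433 genes measured in all 6 lungs. edgeR's quasi-likelihood test on recovered reads called 0 members in each comparison, with 0, 3, 5 and 3 members at an unadjusted p under 0.05 in the order above. The median log2 fold change of the 10 was 0.20, -0.14, 0.25 and 0.02 in the same order, and that of all genes tested lay between -0.01 and 0.00.

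**Figure D3:**
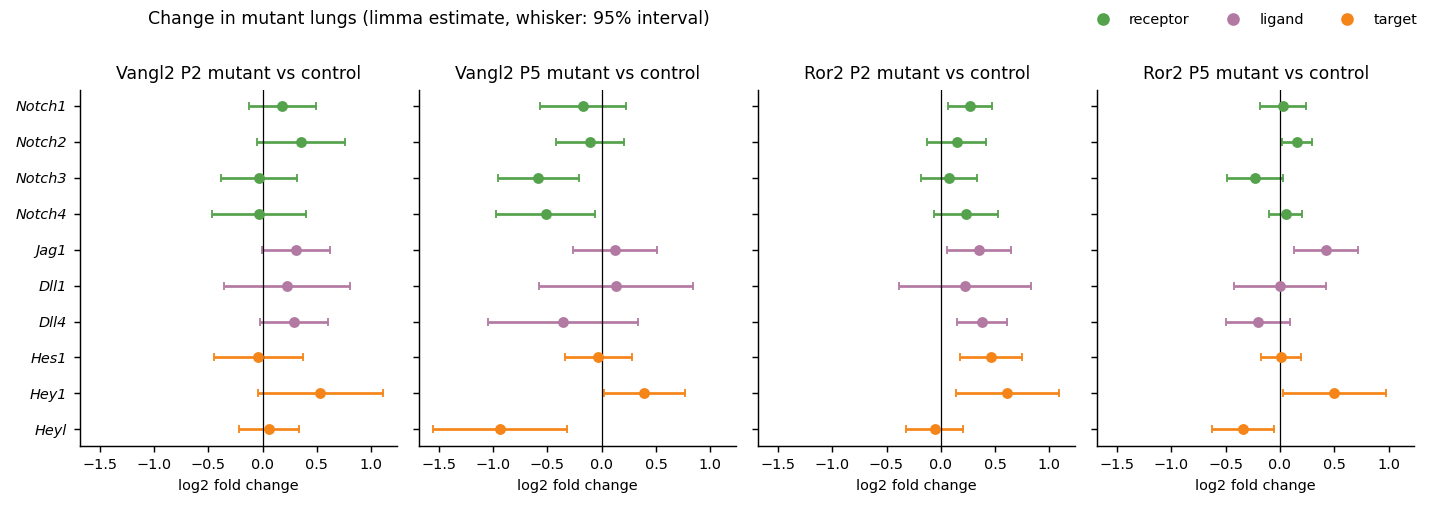
Log2 fold change of each member, mutant over control, with its 95% interval from limma, in the 4 comparisons. Receptors are green, ligands purple and targets orange. The intervals of *Notch3*, *Notch4* and *Heyl* lie below 0 in P5 *Vangl2* mutants, and those of 5 members lie above 0 in P2 *Ror2* mutants, before adjustment for the number of genes.

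Of the receptors, *Notch3*, the receptor of pericytes and vascular smooth muscle, had the clearest difference. In the P5 *Vangl2* comparison it had 4539, 4084 and 3768 normalized counts in controls and 3334, 2582 and 2410 in mutants. The highest mutant lay below the lowest control, and the mean was 0.672 of the control mean (log2 fold change -0.58, 95% interval -0.96 to -0.21, limma adjusted p = 0.127; two-sided exact permutation p = 0.1, and 3 lungs a group can give no smaller one). With the replicate number as a block, a pairing taken from correlations in these same values, its limma adjusted p was 0.0251. It was lower in 3 of 3 numbered pairs, which the lack of overlap already ensures for any pairing.

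*Notch4*, the endothelial receptor, had 3196, 2560 and 2598 normalized counts in P5 *Vangl2* controls and 2598, 1672 and 1669 in mutants. Mutant replicate 1 lay within the control range and the other mutants lay below it (log2 fold change -0.52, 95% interval -0.98 to -0.06, limma adjusted p = 0.220). With the block, a pairing taken from correlations in these same values, the limma adjusted p of *Notch4* was 0.0361. It was lower in 3 of 3 numbered pairs. That count depends on the pairing, since mutant replicate 1 (2598) lay above control replicate 2 (2560). Under the block 8.95% of the 17410 genes passed, so the share called among all genes was also larger in that fit than without it. When 1 pair was left out of the block fit, an analysis added after the values were seen, *Notch4* had an adjusted p of 0.0576, 0.181 and 0.0537 without pair 1, 2 and 3, and *Notch3* had 0.0554, 0.134 and 0.0264.

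In the other comparisons *Notch3* and *Notch4* did not stand apart between mutants and controls. At P2 in *Vangl2* mutants the log2 fold changes were -0.03 and -0.04, with 95% intervals of -0.38 to 0.31 and -0.47 to 0.40. In *Ror2* mutants *Notch3* had a log2 fold change of 0.07 at P2 and -0.23 at P5, and *Notch4* had 0.23 and 0.05. The adjusted p of these 6 values was between 0.315 and 0.930 in limma.

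*Notch1*, the most widely used of the receptors in endothelium and epithelium, had 3370, 3149 and 3261 normalized counts in P2 *Ror2* controls and 3950, 3579 and 4281 in mutants. Every mutant lung was above every control lung (log2 fold change 0.27, 95% interval 0.07 to 0.47, limma adjusted p = 0.208). At P5 in *Ror2* mutants the log2 fold change was 0.03, with a 95% interval of -0.19 to 0.24, and in *Vangl2* mutants it was 0.18 at P2 and -0.17 at P5.

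*Notch2* had the narrowest spread of the members within a group, with a median coefficient of variation of 7.07% over the 8 groups. In P5 *Ror2* lungs it had 2014, 1965 and 2078 normalized counts in controls and 2182, 2326 and 2254 in mutants, apart by a log2 fold change of 0.16 (95% interval 0.02 to 0.30, limma adjusted p = 0.231). At P2 in *Vangl2* lungs it had 2357, 2554 and 2324 in controls and 4020, 3005 and 2411 in mutants, with 1 mutant inside the control range and 1 far above it. The log2 fold change was 0.35 (limma adjusted p = 0.276), and without mutant replicate 3 it was 0.53 with an adjusted p of 0.0436. In that fit 13.2% of all genes were called, against 3.59% with all lungs. That mutant was the nearest to the controls, and leaving out any other lung gave an adjusted p of 0.397 to 0.509.

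Of the ligands, *Jag1*, which is made by airway epithelium, endothelium and smooth muscle, had a higher mean in mutants in all 4 comparisons. In P5 *Ror2* lungs it had 562, 568 and 677 normalized counts in controls and 874, 879 and 678 in mutants. The lowest mutant lung exceeded the highest control lung by less than 1 normalized count (log2 fold change 0.42, 95% interval 0.13 to 0.72, limma adjusted p = 0.170). Without that mutant, replicate 3, the adjusted p was 0.0417, in a fit that called 4.32% of all genes, against 0.18% with all lungs. Leaving out any other lung gave 0.244 to 0.462. At P2 in *Ror2* lungs *Jag1* had 1059, 870 and 936 in controls and 1411, 1074 and 1181 in mutants, again without overlap (log2 fold change 0.35, limma adjusted p = 0.219).

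At P2 in *Vangl2* lungs *Jag1* had 985, 1083 and 1032 normalized counts in controls and 1422, 1400 and 1051 in mutants. Of the mutants, 2 lay above all controls and replicate 3 lay among them (log2 fold change 0.31, 95% interval -0.00 to 0.62, limma adjusted p = 0.224). Without mutant replicate 3 the adjusted p was 0.0253, in a fit that called 13.2% of all genes, against 3.59% with all lungs. Leaving out any other lung gave 0.402 to 0.441. At P5 in *Vangl2* mutants the log2 fold change was 0.12, with a 95% interval of -0.27 to 0.51.

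*Dll4*, the Delta-like ligand of arterial and sprouting endothelium, had 1108, 1164 and 1267 normalized counts in P2 *Ror2* controls and 1471, 1418 and 1717 in mutants. All mutants were above all controls (log2 fold change 0.38, 95% interval 0.14 to 0.61, limma adjusted p = 0.203). At P2 in *Vangl2* lungs the groups were apart as well, with 1349, 1152 and 1393 in controls and 1499, 1871 and 1411 in mutants (log2 fold change 0.29, limma adjusted p = 0.251). It was the only member whose P2 groups were apart in both mutants.

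At P5 the *Dll4* estimate was below 0 in both mutants. *Vangl2* controls had 1818, 1185 and 1518 normalized counts and mutants 1880, 848 and 975, so mutant replicate 1 was the highest of the 6 lungs and the other mutants were the lowest (log2 fold change -0.36, 95% interval -1.05 to 0.33). *Ror2* controls had 1458, 1995 and 2054 and mutants 1535, 1596 and 1604 (log2 fold change -0.20, 95% interval -0.50 to 0.09). The limma adjusted p was 0.568 and 0.422.

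*Dll1*, a ligand of scattered airway and neuroendocrine cells among other sources, varied most between lungs of the same group, with a median coefficient of variation of 27.7%. Its log2 fold change was 0.22, 0.13, 0.23 and -0.00 in P2 and P5 *Vangl2* and P2 and P5 *Ror2* mutants. The widest 95% interval ran from -0.58 to 0.84, in P5 *Vangl2* mutants.

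Of the targets, *Heyl*, the HES-related repressor of mural cells, had the largest difference among all members. In P5 *Vangl2* lungs it had 2680, 3203 and 2727 normalized counts in controls and 2252, 1484 and 1003 in mutants. All mutants were below all controls, and their mean was 0.550 of the control mean (log2 fold change -0.93, 95% interval -1.55 to -0.32, limma adjusted p = 0.133). With the replicate number as a block, a pairing taken from these same values, the limma adjusted p of *Heyl* was 0.0414. It was 0.0226, 0.145 and 0.0588 when pair 1, 2 or 3 was left out of that fit.

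In P5 *Ror2* lungs *Heyl* had 2201, 2384 and 2891 normalized counts in controls and 1748, 1916 and 2236 in mutants. The highest mutant lung was just above the lowest control lung (log2 fold change -0.34, 95% interval -0.63 to -0.05, limma adjusted p = 0.217). At P2 its log2 fold change was 0.06 in *Vangl2* and -0.06 in *Ror2* mutants, with 95% intervals of -0.22 to 0.34 and -0.32 to 0.21.

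*Hey1*, the repressor of arterial endothelium, had a log2 fold change above 0 in all 4 comparisons: 0.53 and 0.39 in P2 and P5 *Vangl2* mutants and 0.61 and 0.50 in P2 and P5 *Ror2* mutants. In P2 *Ror2* lungs it had 1441, 1080 and 1258 normalized counts in controls and 2060, 1409 and 2415 in mutants, with the lowest mutant inside the control range (95% interval 0.14 to 1.09, limma adjusted p = 0.211). Without that mutant, replicate 2, the adjusted p was 0.0399, in a fit that called 4.84% of all genes, against 0% with all lungs. Leaving out any other lung gave 0.27 to 0.532. In P5 *Vangl2* lungs the groups were apart, with 1019, 1259 and 1095 in controls and 1793, 1377 and 1289 in mutants (limma adjusted p = 0.247).

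In P5 *Ror2* lungs *Hey1* had 2096, 1232 and 1260 normalized counts in controls and 2336, 2227 and 1780 in mutants. Control replicate 1, the lung with missing chromosomes, was the highest control and lay within the mutant range (limma adjusted p = 0.249). At P2 in *Vangl2* lungs controls had 1589, 1098 and 1906 and mutants 2471, 2598 and 1560 (limma adjusted p = 0.256).

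*Hes1*, the general Notch target that also answers to other signals, had 1484, 1421 and 1286 normalized counts in P2 *Ror2* controls and 2172, 1623 and 2003 in mutants. All mutants were above all controls (log2 fold change 0.46, 95% interval 0.18 to 0.74, limma adjusted p = 0.203). Without the lowest mutant, replicate 2, the adjusted p was 0.0387, in a fit that called 4.84% of all genes, against 0% with all lungs. That mutant was the nearest to the controls, and leaving out any other lung gave 0.267 to 0.529. In the other 3 comparisons the log2 fold change of *Hes1* was -0.04, -0.03 and 0.01, for P2 *Vangl2*, P5 *Vangl2* and P5 *Ror2* mutants. The 95% interval of the last was -0.18 to 0.20.

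*Hey1* and *Heyl* had estimates of opposite sign in 3 of the 4 comparisons, and their ratio was taken within each lung, where the scaling of the lung cancels; this ratio was chosen after the values were seen. The log2 ratio of *Hey1* to *Heyl* was -1.40, -1.35 and -1.32 in P5 *Vangl2* controls and -0.33, -0.11 and 0.36 in mutants. In P2 *Ror2* lungs it was -0.72, -0.73 and -0.71 in controls and 0.16, -0.49 and 0.19 in mutants. The groups did not overlap in either set, which is a description, since the genes were picked for their opposite signs.

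The ratio overlapped between groups in the other comparisons. In P2 *Vangl2* lungs the mean was -0.15 ± 0.47 in controls and 0.32 ± 0.24 in mutants (SD, n = 3), and in P5 *Ror2* lungs it was -0.74 ± 0.59 and 0.10 ± 0.39. The mean was higher in mutants in all 4 comparisons.

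**Figure D4:**
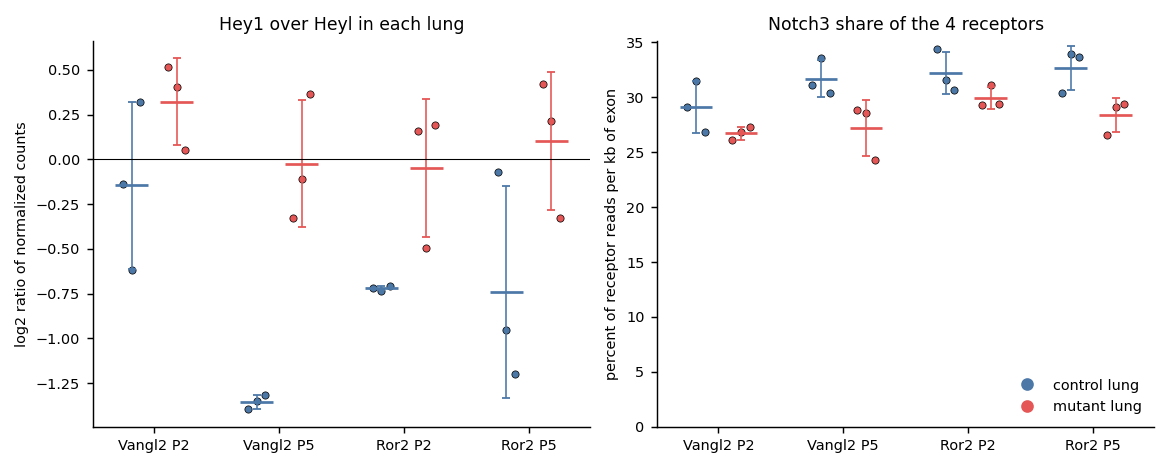
Left, log2 ratio of *Hey1* to *Heyl* normalized counts in each lung. Right, share of *Notch3* among the reads per kilobase of the 4 receptors, in percent. Points are control (blue) and mutant (red) lungs, bars are means and whiskers the SD of 3. The ratio is apart in P5 *Vangl2* and P2 *Ror2* lungs, and the *Notch3* share is apart at P5 in both mutants.

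Within the receptors, *Notch3* took 31.7% ± 1.69 of the reads per kilobase in P5 *Vangl2* controls and 27.2% ± 2.58 in mutants (SD, n = 3), and 32.7% ± 1.98 and 28.4% ± 1.57 in P5 *Ror2* lungs. The groups were apart in both (two-sided exact permutation p = 0.1 in each, the smallest that 3 lungs a group can give). *Notch2* took more in the mutants in both, 13% ± 0.0814 against 15.6% ± 1.43 and 13.3% ± 1.01 against 15.1% ± 0.397, also without overlap. A share also moves with those of the other receptors. The log2 fold change of *Notch2* itself was -0.11 in P5 *Vangl2* mutants (limma adjusted p = 0.723) and 0.16 in P5 *Ror2* mutants (0.231). Among the ligands, *Jag1* took 14% ± 1.40 in P5 *Ror2* controls and 19.5% ± 1.83 in mutants, without overlap.

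Whether the mutant effect differed with age or between the mutants was tested with limma over the 12 lungs of a pair of comparisons. No member passed in any of these 4 tests. For the difference P5 minus P2 in *Vangl2* mutants, 0 of 10 were called (background 0% of genes) and 2 had an unadjusted p under 0.05 (8.45%). For *Ror2* mutants the values were 0 (0%) and 2 (9.49%).

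For *Vangl2* minus *Ror2* the values were 0 (0%) and 0 (4.6%) at P2, and 0 (0.0118%) and 1 (4.73%) at P5. The members with an unadjusted p under 0.05 were *Heyl* and *Notch3* with age in *Vangl2* mutants, *Dll4* and *Hes1* with age in *Ror2* mutants, and *Notch4* between the mutants at P5. Their differences of log2 fold changes were -0.996 (95% interval -1.69 to -0.30, limma adjusted p = 0.577), -0.55 (-1.05 to -0.05, 0.577), -0.58 (-0.96 to -0.20, 0.452), -0.45 (-0.78 to -0.12, 0.452) and -0.57 (-1.05 to -0.09, 0.946).

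A wider list of 56 pathway genes, grouped by textbook role, was read beside the members, and 55 of them were listed in the tables. In each comparison 53 or 54 were tested. In P2 *Vangl2* mutants 1 rose and 0 fell, against 3.59% called among all genes, and in P5 *Vangl2* mutants 1 rose and 0 fell, against 0.563%. In P2 *Ror2* mutants 0 rose and 0 fell, against 0%, and in P5 *Ror2* mutants 0 rose and 1 fell, against 0.18%. The list's median log2 fold change was 0.11, -0.12, 0.12 and -0.04.

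The gene that rose in P5 *Vangl2* mutants was *Dlk1*, a membrane protein related to the Delta ligands that lacks the domain for activating Notch and is known from fetal tissues. It had 2130, 1427 and 1376 normalized counts in controls and 5529, 6542 and 4316 in mutants, 3.32-fold higher (log2 fold change 1.74, SE 0.22, limma adjusted p = 0.0202). The block gave an adjusted p of 0.00622. Without control replicate 2 or 3 or mutant replicate 1, 2 or 3 it was 0.0978, 0.0648, 0.0661, 0.0611 and 0.0632. In P5 *Ror2* lungs *Dlk1* had 1111, 887 and 397 in controls and 2839, 1654 and 1532 in mutants, apart but not called (log2 fold change 1.40, limma adjusted p = 0.149).

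In P2 *Vangl2* mutants *Dtx4*, an E3 ubiquitin ligase of the Deltex family that acts on the receptors, had 1070, 1091 and 1053 normalized counts in controls and 1740, 1437 and 1479 in mutants. It rose by a log2 fold change of 0.53 (SE 0.10, limma adjusted p = 0.0387). The adjusted p was 0.123, 0.177, 0.159 and 0.0875 without control replicate 1, 2 or 3 or mutant replicate 2. In P5 *Ror2* mutants *Bhlhe40*, a basic helix-loop-helix repressor responsive to many signals, fell.

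*Bhlhe40* is on one of the chromosomes that control replicate 1 lacks, and that lung was set to missing. Controls 2 and 3 had 1080 and 1127 normalized counts and mutants 664, 606 and 638 (log2 fold change -0.80, SE 0.09, limma adjusted p = 0.0399). The adjusted p was 0.282 and 0.276 without control replicate 2 or 3, 0.284 without mutant replicate 2, and 0.080 when control replicate 1 was left out for all genes. In P2 *Ror2* mutants the largest differences without overlap were those of the corepressor *Cir1* (log2 fold change 0.48), the acetyltransferase *Kat2b* (0.43) and the ligand-activating ubiquitin ligase *Mib2* (0.40), with limma adjusted p of 0.216, 0.203 and 0.203.

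Among the groups of the list, 10 of 14 genes of the nuclear complex and its corepressors had estimates below 0 in P5 *Vangl2* mutants and 11 of 14 in P5 *Ror2* mutants, against 4 and 3 of 14 at P2. None of them passed the test, and the group medians were -0.28 and -0.14 at P5 and 0.23 and 0.11 at P2. In the whole list 30 of 54 and 31 of 53 tested genes were below 0 at P5, and 19 of 54 and 15 of 53 at P2. The median of all genes tested lay between -0.01 and 0.00 in each comparison. *Nrarp*, a feedback target of Notch, had 2368, 1448 and 2344 normalized counts in P5 *Vangl2* controls and 1692, 1208 and 1028 in mutants (log2 fold change -0.65, limma adjusted p = 0.217). *Hes6*, a HES family member, had 319, 347 and 385 in those controls and 508, 532 and 768 in mutants (log2 fold change 0.76, limma adjusted p = 0.114, and 0.0251 with the block). Both genes, and the group named above, were chosen here after their values were seen.

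**Figure D5:**
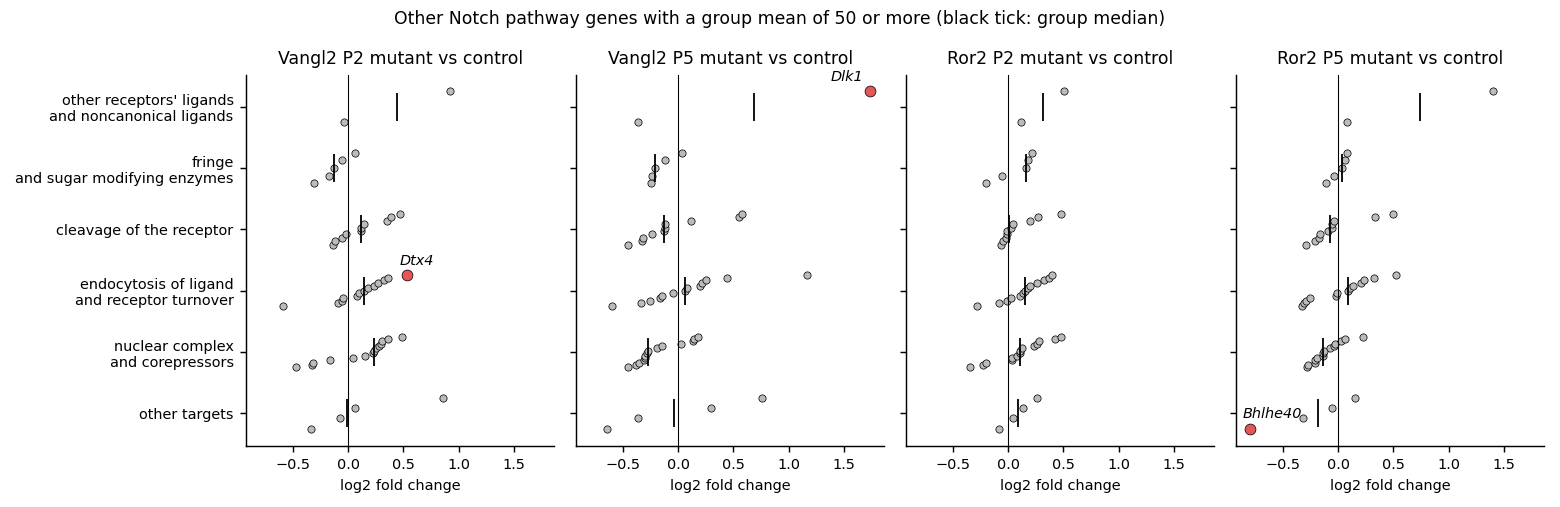
Log2 fold change of the other pathway genes with a mean of at least 50 normalized counts in a group, by role, in the 4 comparisons. Grey points are genes, red points are those past a limma adjusted p of 0.05, and black ticks are the medians of the genes drawn. *Dlk1* rose in P5 *Vangl2* mutants, *Dtx4* rose in P2 *Vangl2* mutants and *Bhlhe40* fell in P5 *Ror2* mutants.

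Markers of several cell types also differed between mutants and controls, those of vessel cells among them. In P5 *Vangl2* mutants 12 of 12 endothelial markers had estimates below 0, with a median log2 fold change of -0.51, and their summed level ran from 89620 to 97230 normalized counts in controls and from 52070 to 81520 in mutants. Of the 12 mural and smooth muscle markers 9 were below 0 (median -0.47), with sums of 49590 to 67150 and 27690 to 59190. In that comparison no marker of either list was called in limma without the block, against 0.563% of all genes. With the block 4 endothelial and 3 mural markers fell, in a fit that called 8.95% of all genes.

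In P2 *Ror2* mutants 12 of 12 endothelial markers had estimates above 0 (median 0.24), with sums of 70230 to 87880 in controls and 84550 to 100400 in mutants. In P2 *Vangl2* and P5 *Ror2* mutants 6 of the 12 were above 0 and 6 below. Of the 12 mural markers 10 were below 0 in P2 *Vangl2* mutants, with sums of 51760 to 61870 in controls and 39590 to 51520 in mutants. There 1 was called up and 1 down, against 3.59% of all genes. In *Ror2* mutants 8 were below 0 at P2 and 10 at P5, with 1 called down at P5, against 0.18%. The 8 arterial markers had medians of 0.11 and -0.15 in P2 and P5 *Vangl2* and 0.28 and 0.11 in P2 and P5 *Ror2* mutants. No marker of these 3 lists was at 0 in any group. In the P5 *Vangl2* comparison the only male among 6 lungs was mutant replicate 1, and without it the log2 fold changes of *Notch3*, *Notch4* and *Heyl* were -0.72, -0.73 and -1.23, further from 0 than with it. That of *Hey1* moved towards 0 without it, from 0.39 to 0.25 (limma unadjusted p = 0.137). What share of the members' differences goes with these markers was not tested.

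In the P5 *Ror2* comparison all 3 mutants were male, and the controls were 1 male, 1 female and 1 lung of unknown sex. With a sex term the log2 fold change there went from 0.42 to 0.25 for *Jag1* (limma adjusted p = 0.757), from -0.34 to -0.56 for *Heyl* (0.666) and from -0.00 to -0.39 for *Dll1* (0.703). That fit also left out the control of unknown sex, replicate 1, so the shifts are not those of the term alone. It called 0 of all genes, with 1279 at an unadjusted p under 0.05. With that lung left out and no sex term, 6 genes were called, against 31 with all lungs. The log2 fold change was then 0.375 for *Jag1* and -0.0887 for *Dll1*.

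Matrix fibroblast markers had summed levels of 231200 to 248200 normalized counts in controls and 170300 to 190700 in mutants in P2 *Vangl2*, 297000 to 323700 and 143500 to 239600 in P5 *Vangl2*, and 250800 to 260400 and 165700 to 232100 in P2 *Ror2* lungs, without overlap. In P5 *Ror2* lungs they overlapped, with 245200 to 272400 and 179400 to 245700. A sum is carried by the most abundant markers. Of the 8 markers, 3, 3, 1 and 2 had estimates above 0 in P2 and P5 *Vangl2* and P2 and P5 *Ror2* mutants. The medians were -0.32, -0.53, -0.54 and -0.27. The 4 macrophage markers measured had medians of 0.48, 0.74, -0.27 and 0.07 in P2 and P5 *Vangl2* and P2 and P5 *Ror2* mutants. All 4 were apart in P5 *Vangl2* mutants, against 25.7% of all genes, and none was called. The 8 alveolar type I markers had medians of 0.45, 0.17, 0.44 and 0.15, with 8 of 8 estimates above 0 in P2 *Ror2* mutants. The part of these cells in the members' values was not tested.

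Airway markers also differed. All 5 club cell markers had estimates above 0 in P2 *Vangl2*, P5 *Vangl2* and P5 *Ror2* mutants, with medians of 0.68, 1.21 and 1.29. Of these markers 1, 1 and 0 were called, against 3.59%, 0.563% and 0.18% of all genes. In P2 *Ror2* mutants 4 of 5 were above 0 (median 0.62, 0 called, against 0%). All 6 ciliated markers measured had estimates above 0 in the same 3 comparisons, with medians of 0.58, 1.16 and 1.23 and 0 called. In P2 *Ror2* mutants 5 of the 6 were below 0 (median -0.08). Their part in the members' values was not tested either.

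Genes that varied most like a member from lung to lung were sought among 7686 genes, using the deviation of each of the 24 lungs from its group mean. *Heyl* went with *Elk3* (Pearson r = 0.931), *Gucy1a3* (0.890) and *Reep3* (0.884). *Notch3* went with *Sema6a* (0.924), *Bahcc1* (0.877) and *Itpkb* (0.877), and *Notch4* with *Caskin2* (0.914), *Tenc1* (0.899) and *Adap2* (0.873). *Dll4* went with *Csnk1e* (0.897), *Eng* (0.880) and *Derl1* (0.856), where *Eng* encodes the endothelial receptor endoglin.

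For the other members the nearest genes were *Dgkd* for *Notch1* (0.860), *Dab2ip* for *Notch2* (0.936), *Zfp641* for *Jag1* (0.833), *Coq10b* for *Dll1* (0.909), *Pigx* for *Hes1* (0.756) and *Dus3l* for *Hey1* (0.790). *Hes1* thus had the weakest nearest neighbour. Among the members themselves the highest values were those of *Notch3* with *Notch4* (0.776), *Notch2* with *Notch4* (0.763), *Notch2* with *Notch3* (0.748), *Notch4* with *Dll4* (0.689) and *Notch3* with *Heyl* (0.687). These correlations share library scaling and the cell make-up of each lobe and are given as a description.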

How the data were processed

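RNA from 24 left lung lobes was sequenced by the authors on Illumina HiSeq instruments, and the submitters' processing notes name mm10 and DESeq2; the aligner and read counter are not given in the sources used here. The signal deposited by the authors for each gene and lung is a normalized count, the reads on the gene divided by a size factor within each table of 6 lungs, with replicates kept apart. Every value was a whole multiple of 1 step (100% within 0.02 reads), which gave the reads used for depth and for edgeR. Deposited columns with the authors' own fold changes and p-values were not used. The members and gene lists were chosen with earlier results of these data known.

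limma (version 3.58.1, R version 4.3.3; lmFit, eBayes with trend) took log2(normalized count + 1) as input, with each comparison's own 6 lungs, over genes with at least 1 in at least 3 lungs, with Benjamini-Hochberg adjustment over all of them and a threshold of 0.05. Fold changes are on that log2 scale. Differences between comparisons used 12 lungs with each table's own controls. In P5 *Ror2* control replicate 1, genes on chromosomes 5 to 9 and X, and 155 genes with no chromosome found, were set to missing. Alternatives were other pseudocounts, filters and scalings, a replicate block, each lung left out, a sex term, 1 fit over 24 lungs, and edgeR (version 4.0.16). In P5 *Ror2* lungs the sex term was fitted without control replicate 1, whose sex was not known.

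Same-numbered lungs correlated in their deviations from group means at 0.241 to 0.384 in the P5 *Vangl2* comparison, so its numbers were taken to pair the lungs. In the other comparisons the values ran from -0.09 to 0.21 and at least 1 pair was under 0.1. The labels do not say whether lungs of a group came from separate litters, and p-values measure the spread between these lungs. All 10 members were named, with pathway genes that passed the test and, where none did, the 3 with the largest difference, a mean of at least 50 and no overlap. For each member the 3 genes of highest correlation were sought among genes with a mean of at least 100 in every table. Promoter windows came from RefSeq tables.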

Additional observations from a re-analysis of the deposited data

How the results depend on the processing

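Using the replicate number as a block, 0, 3, 0 and 0 members passed in P2 *Vangl2*, P5 *Vangl2*, P2 *Ror2* and P5 *Ror2* mutants, against 0 in each without it; all genes called in P5 *Vangl2* mutants went from 98 to 1558 and in P5 *Ror2* mutants from 31 to 1, *Dtx4* and *Bhlhe40* had an adjusted p of 0.0504 and 0.059, and it changed no other member's call. Leaving pair 1, 2 or 3 out of that block fit in P5 *Vangl2* lungs called 1, 0 and 1 members, with 460, 285 and 1803 of 17410 genes called. For the same comparison 1 fit over all 24 lungs called 2, with 11.7% of all genes called. When single lungs were left out, members called ranged from 0 to 2, 0 to 0, 0 to 2 and 0 to 1, and all genes called across alternatives from 1 to 2308, 0 to 1964, 0 to 849 and 0 to 742. With no filter on low values, 18, 22, 12 and 41 genes were called, against 626, 98, 0 and 31, and *Dtx4*, *Dlk1* and *Bhlhe40* lost their calls (adjusted p of 0.132, 0.143 and 0.0832). A sex term ended the call of *Dlk1* (0.0675). *Bhlhe40* lost its call with the sex term and control replicate 1 left out (0.51), and in the fit over 24 lungs (0.40). The causes were not tested.

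Small log2 fold changes turned sign. With single lungs left out, P2 *Vangl2* values ran from -0.16 to 0.12 for *Notch3*, -0.21 to 0.18 for *Notch4*, -0.0022 to 0.45 for *Dll1*, -0.19 to 0.17 for *Hes1* and -0.0331 to 0.16 for *Heyl*. P5 *Vangl2* values ran from -0.002 to 0.24 for *Jag1*, -0.20 to 0.36 for *Dll1* and -0.13 to 0.052 for *Hes1*. In P2 *Ror2* mutants *Heyl* ran from -0.16 to 0.0425. In P5 *Ror2* mutants *Notch1* ran from -0.0407 to 0.12, *Dll1* from -0.12 to 0.19 and *Hes1* from -0.0615 to 0.0517. A sex term gave 0.0227 for *Notch3* and 0.041 for *Notch4* in P2 *Vangl2* and -0.0776 for *Dll1* in P5 *Vangl2* mutants. With control replicate 1 also left out, it gave -0.15 for *Notch1* in P5 *Ror2* mutants. Upper quartile scaling gave 0.0254 for *Hes1* in P5 *Vangl2* and 0.0212 for *Dll1* in P5 *Ror2* mutants.

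The 95% interval included 0 for 10, 6, 5 and 6 of the 10 members in the same order of comparisons, and with 3 lungs a group the smallest two-sided exact permutation p is 0.1.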
